A study of Mus musculus with 35 samples.

Results

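Receptors and bridging ligands for apoptotic cells were followed in mouse microglia between the first postnatal week and adulthood. The set held 10 named genes of the 55401 genes in the count table, namely the TAM receptors Mertk, Axl and Tyro3, their ligands Gas6 and Pros1, the bridging protein Mfge8, and the engulfment receptors Cd36, Megf10, Lrp1 and Timd4. These symbols were looked up by Ensembl identifier, each matched 1 gene, and all 10 were among the 17612 genes that passed the filter on low counts. mRNA had been sequenced from cells of whole C57Bl/6 brains caught by panning on anti-CD45, which binds a surface protein of leukocytes that microglia carry at a low level. Each mouse gave 1 library. The labels name no transgene or treatment and tie no mice to litters, and the groups were set by age and sex. At postnatal day 6 (P6) there were 4 females and 6 males. P15 and 8 weeks had 6 females and 6 males each. Another P6 mouse, P6 female 6, was left out and is given separately, since the study removed 1 mouse as an outlier and this is the mouse its plotted mRNA samples omit. CD45 is also found on macrophages, monocytes and lymphocytes, so the panning selected leukocytes of the brain rather than microglia alone.

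Dying cells display phosphatidylserine on their outer surface, where it acts as a signal for engulfment. Some phagocyte receptors bind this lipid directly, as Timd4 does, while the TAM receptor tyrosine kinases bind it through Gas6 or Pros1, secreted proteins that hold phosphatidylserine at one end and the receptor at the other. Gas6 binds all TAM receptors, and Pros1, known in plasma as the anticoagulant protein S, binds Mertk and Tyro3. In the brain, microglia are known to carry Mertk and Axl, while Tyro3 is known mainly from neurons and Megf10 mainly from astrocytes.

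The libraries held between 23316107 and 38965078 counts on genes, with a median of 32742525, and a level of 3 counts corresponded to 0.0745 to 0.137 CPM (a gene's counts scaled to the effective size of its library) in the 34 mice, which covers counting error alone. All 6 markers of microglia, which include Tmem119 and P2ry12, were present in every mouse, and their summed level was 5593 to 10055 CPM at P6, 12143 to 23862 CPM at P15 and 15821 to 22495 CPM at 8 weeks, against 2515 CPM in P6 female 6. The 7 astrocyte markers summed to 500 to 1280 CPM at P6, 916 to 7523 CPM at P15 and 1928 to 5616 CPM at 8 weeks, and the 6 markers of neural progenitors and immature neurons to 613 to 1884, 109 to 778 and 80.3 to 191 CPM. The 7 markers of border-associated macrophages summed to 738 to 1608, 390 to 1187 and 392 to 750 CPM, with Mrc1 the highest of them. Markers of other leukocytes were lower, and their summed level had a higher median at each later age. The 3 of monocytes summed to 6.25 to 14.7 CPM at P6, 10.2 to 20.3 CPM at P15 and 15.1 to 48.0 CPM at 8 weeks. The 5 of neutrophils and lymphocytes summed to 12.5 to 40.8, 11.9 to 65.0 and 30.5 to 212 CPM. Each of these markers exceeded 3 counts in at least 1 mouse of every age. Their part in the members' changes was not tested. P15 male 1 stood apart, with the lowest microglial and border-associated macrophage markers and the highest oligodendrocyte markers of its age. The astrocyte markers were highest in P15 female 2 and P15 male 1 at P15 and in 8-week female 1 at 8 weeks, and results that change without these mice are given with and without them. Since the microglial markers themselves rose with age, the counts were also scaled to the mean of these 6 markers, which answers how a gene changed relative to them. Under that scaling the median log2 fold change of all genes was -1.50 from P6 to P15, -0.14 from P15 to 8 weeks and -1.61 from P6 to 8 weeks, against -0.01, 0.02 and 0.04 without it, and members whose sign turned are also given relative to this median. In bulk libraries a smaller number of cells of a type and less RNA per cell cannot be told apart.

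Age changed 6 of the 10 genes from P6 to P15, 5 from P15 to 8 weeks and 7 from P6 to 8 weeks (edgeR quasi-likelihood test, FDR below 0.05 over 17612 genes). From P6 to P15, 4 rose (Mertk, Pros1, Megf10 and Lrp1, each of which came out below 0 relative to the microglial markers) and 2 fell (Gas6 and Cd36), where 30.4% of all genes rose and 31.4% fell. From P15 to 8 weeks, 2 rose (Mertk, Pros1) and 3 fell (Axl, Gas6, Lrp1), where 24% of all genes rose and 23.9% fell. Over the whole interval from P6 to 8 weeks, 3 rose (Mertk, Megf10 and Pros1, the last turning to a fall relative to the microglial markers) and 4 fell (Tyro3, Gas6, Cd36 and Timd4), beside 37.8% and 36.6% of all genes. A change beyond 2-fold (glmTreat, FDR below 0.05) was called for 1 gene from P6 to P15 (Mertk), for 0 from P15 to 8 weeks and for 3 from P6 to 8 weeks (Mertk and Megf10 upwards, Gas6 downwards), where 9.73%, 4.26% and 23.8% of all genes were called. The 2-fold call of Gas6 was lost with P6 female 6 included, which gave 3 members upwards and 0 downwards, and with limma-voom or DESeq2, while 4 members were called without P15 male 1 or without 8-week female 1. In CPM, 4 of the 10 did not overlap between P6 and 8 weeks (Mertk, Gas6, Pros1, Megf10), beside 29.6% of all genes. From P6 to P15 and from P15 to 8 weeks, 0 of the 10 were free of overlap, beside 13% and 3.37% of all genes. These shares of members lie near the background, so the counts alone set these genes apart from no others. Scaled to the microglial markers, 0 of the 10 rose and 8 fell from P6 to P15, where 2.19% of all genes rose and 87.8% fell, and 2 rose and 4 fell from P15 to 8 weeks, where 12.2% rose and 28.7% fell. From P6 to 8 weeks 1 rose and 8 fell on that scale, where 4.25% of all genes rose and 85.1% fell. Beyond 2-fold it called 5 members from P6 to P15 and 6 from P6 to 8 weeks, all downwards, beside 64.6% and 66.9% of all genes.

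**Figure D1:**
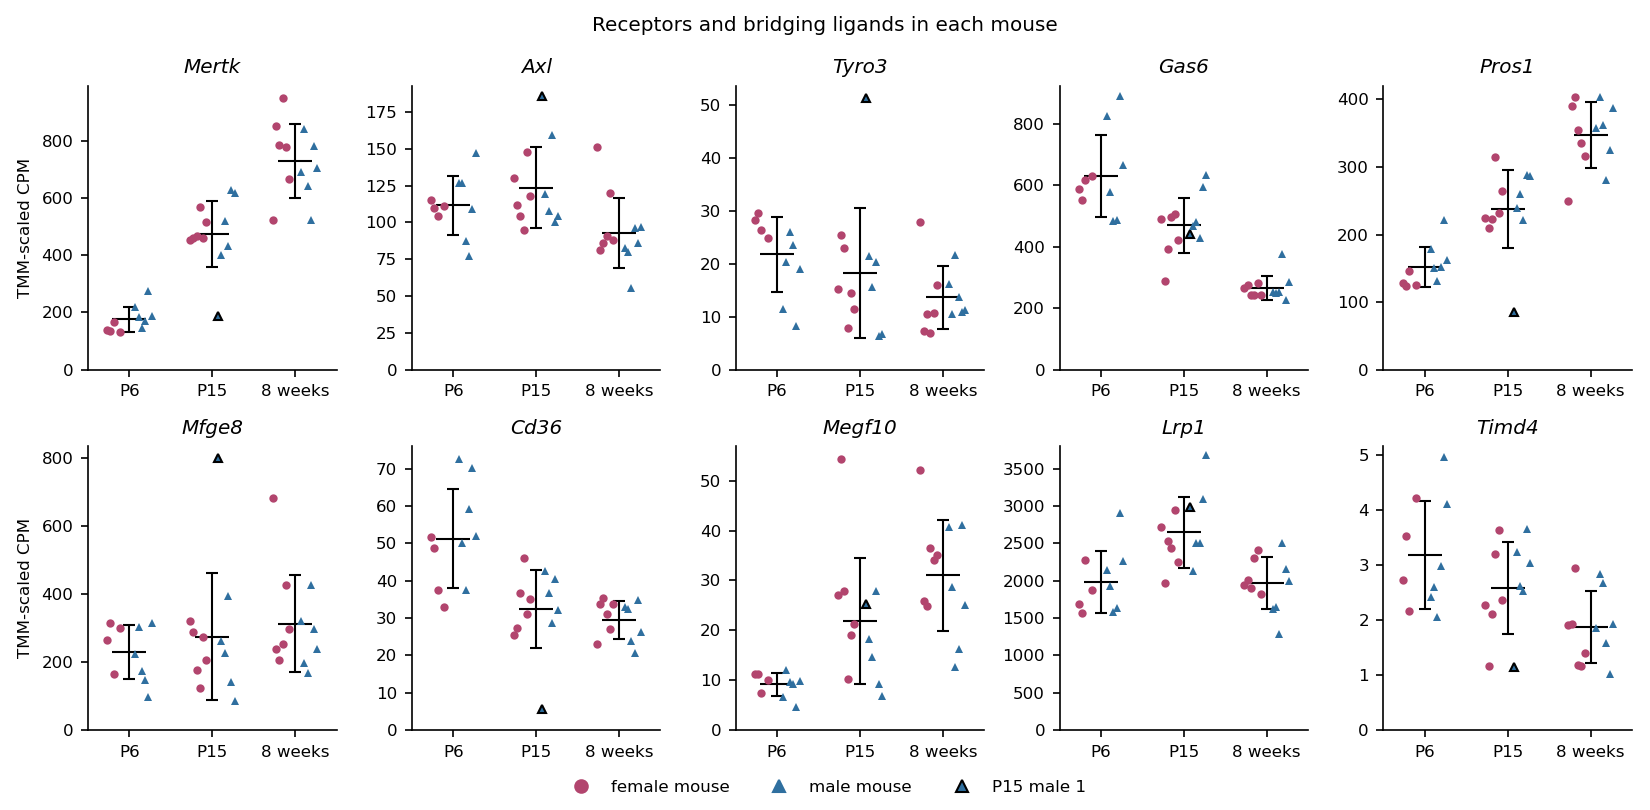
TMM-scaled CPM of the 10 genes in each of the 34 mice, by age. Circles are females, triangles males, the outlined triangle is P15 male 1, and bars give the mean and SD of each age. In CPM, Mertk and Pros1 sit higher and Gas6 lower in every 8-week mouse than in every P6 mouse, although relative to the microglial markers Pros1 was lower at 8 weeks (log2FC -0.41), while P15 male 1 lies far from its age in Mertk, Pros1, Cd36, Tyro3 and Mfge8.

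Mertk, the TAM kinase through which macrophages take up apoptotic cells and the retinal pigment epithelium takes up shed photoreceptor tips, lies on chromosome 2 (GRCm38, 128698956 to 128802894, plus strand, ENSMUSG00000014361). It was measured at 133 to 274 CPM in the P6 mice with a median of 170, at 186 to 626 CPM in the P15 mice with a median of 464, and at 522 to 950 CPM in the 8-week mice with a median of 741. All mice at 8 weeks were above all mice at P6, and at P15 only P15 male 1 fell among the P6 mice, the next lowest P15 mouse being at 399 CPM. Its mean level stood at 176 ± 44.2 CPM (SD, n = 10) in the P6 mice, rising to 475 ± 116 CPM (n = 12) in the P15 mice and to 728 ± 129 CPM (n = 12) in the adults. Mertk rose by a log2 fold change (log2FC) of 1.50 (SE 0.147, FDR = 2.64e-10, edgeR quasi-likelihood test) from P6 to P15, a direction that turned to -0.03 (FDR = 0.756) when counts were scaled to the microglial markers, where it stood 1.47 above the median gene. It rose further by 0.62 (SE 0.133, FDR = 0.000375) from P15 to 8 weeks. From P6 to 8 weeks the log2FC was 2.11 (SE 0.151, FDR = 7.67e-14), and relative to the microglial markers it was 0.48 (FDR = 2.97e-05), the only rise among the 10 genes on that scale. P6 female 6, low in microglial markers, held 72.9 CPM.

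Axl, the TAM receptor known to be raised on activated microglia, lies on chromosome 7 (25757273 to 25788705, minus strand, ENSMUSG00000002602). It ranged from 77.5 to 147 CPM at P6 with a median of 111, from 95.1 to 186 CPM at P15 with a median of 115, and from 55.6 to 151 CPM at 8 weeks with a median of 87.2. The 3 ages overlapped, and the highest mice were P15 male 1 and, at 8 weeks, 8-week female 1. Axl fell by 0.42 (log2, SE 0.121, FDR = 0.00512, edgeR) from P15 to 8 weeks. The change from P6 to P15, log2FC 0.15, did not pass the test (FDR = 0.317) and took the opposite sign, -1.27 (FDR = 2.18e-07), relative to the microglial markers, 0.23 above the median gene. From P6 to 8 weeks the log2FC was -0.27 with an FDR of 0.0555. It passed with library size scaling (-0.41, FDR = 0.00681) and relative to the microglial markers (-1.89, FDR = 7.02e-11), and also with limma-voom (FDR = 0.0450), with all 35 mice (FDR = 0.0434), with the stricter filter of at least 10 counts in every mouse (FDR = 0.0279) and with the 2 ages fitted alone (FDR = 0.0448). The FDR moved to 0.0124 when 8-week female 1 was left out (log2FC -0.34), to 0.0272 without P15 male 1 (-0.29), to 0.0257 without P15 female 2 (-0.31), and to 0.0330, 0.0269 and 0.0357 without P6 female 2, 3 or 5.

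Tyro3, the TAM receptor mainly of neurons, lies on chromosome 2 (119797733 to 119818104, plus strand, ENSMUSG00000027298). Its range was 8.19 to 29.5 CPM at P6 (median 24.3), 6.34 to 51.3 CPM at P15 (median 15.5) and 7.02 to 27.8 CPM at 8 weeks (median 11.1). The ages overlapped widely, and the top mouse at P15 was P15 male 1 and at 8 weeks 8-week female 1. Tyro3 fell by 0.70 from P6 to 8 weeks (log2, SE 0.289, FDR = 0.0286, edgeR). The steps from P6 to P15 (log2FC -0.29, FDR = 0.393) and from P15 to 8 weeks (-0.41, FDR = 0.214) did not pass. Relative to the microglial markers the first passed (-1.66, FDR = 0.000216), the second did not (-0.71, FDR = 0.118), and the whole interval gave -2.37 (FDR = 1.65e-06). Without P15 male 1 they were -0.57 (FDR = 0.0537) and -0.17 (FDR = 0.597), and without the 3 mice highest in astrocyte markers the first step passed the test (-0.64, FDR = 0.0194). The 6 neuron markers summed to medians of 692, 315 and 110 CPM at the successive ages. The medians of Tubb3, Stmn2 and Rbfox3 fell at each step. Those of Snap25 (22.2, 51.9 and 39.3 CPM), Syt1 (26.4, 51.3 and 25.1 CPM) and Nefl (18.5, 22.7 and 13.1 CPM) were highest at P15. The part of the neuron markers in the fall of Tyro3 was not tested.

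Gas6 and Pros1, the soluble ligands of the TAM receptors, moved in opposite directions in CPM, although both fell from P6 to 8 weeks relative to the microglial markers (log2FC -2.85 and -0.41). Gas6 lies on chromosome 8 (13465374 to 13494490, minus strand, ENSMUSG00000031451) and shares 34 exonic bases with Tmem255b on the other strand, which the stranded counting keeps apart. It ranged from 485 to 890 CPM at P6 (median 602), from 288 to 632 CPM at P15 (median 475) and from 227 to 376 CPM at 8 weeks (median 253). P6 and 8-week mice did not overlap, and the P15 mice reached into both. Mean levels of 631 ± 133 CPM in the P6 mice (SD, n = 10), 470 ± 89.4 CPM in the P15 mice (n = 12) and 266 ± 39.0 CPM in the adults (n = 12) followed each other. Gas6 fell by 0.42 (log2, SE 0.110, FDR = 0.00154, edgeR) to P15 and by a further 0.82 (SE 0.105, FDR = 2.19e-07) to 8 weeks, 1.23 in all (SE 0.110, FDR = 1.43e-11), and it fell under each scaling tried.

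Pros1 lies on chromosome 16 (62854307 to 62929346, plus strand, ENSMUSG00000022912). It ranged from 124 to 222 CPM at P6 (median 149), from 85.6 to 315 CPM at P15 (median 236) and from 250 to 404 CPM at 8 weeks (median 356). Again P6 and 8-week mice did not overlap, and P15 male 1 was below all P6 mice while the next P15 mouse stood at 210 CPM. Pros1 rose by 0.69 (log2, SE 0.136, FDR = 6.06e-05, edgeR) from P6 to P15, a sign that turned to -0.85 (FDR = 7.00e-11) relative to the microglial markers, 0.65 above the median gene. It rose by 0.55 (SE 0.126, FDR = 0.000720) from P15 to 8 weeks. The total rise of 1.23 (SE 0.138, FDR = 1.87e-09) did not pass the 2-fold test (glmTreat FDR = 0.0515) and became -0.41 (FDR = 5.17e-05) relative to the microglial markers, 1.20 above the median gene.

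Ratios of 2 genes within 1 library do not depend on how libraries are scaled, and both the receptors and the ligands changed their balance. For each Axl count there was a median of 1.53 Mertk counts at P6 (1.20 to 2.51), 4.23 at P15 (0.997 to 6.23) and 8.72 at 8 weeks (3.46 to 11.5). The lowest P15 value was that of P15 male 1 and the lowest 8-week value that of 8-week female 1, and the 8-week mice lay above all P6 mice. The log2 ratio of Mertk to Axl rose by 1.28 (SE 0.24, adjusted p = 1.60e-04, permutation test, n = 10 and 12) from P6 to P15 and by 1.07 (SE 0.25, adjusted p = 1.60e-04, permutation test, n = 12 and 12) from P15 to 8 weeks. Without P15 male 1 these steps were 1.45 and 0.90.

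The ligand ratio went down. For each Pros1 count there was a median of 4.16 Gas6 counts at P6 (3.21 to 5.01), 1.94 at P15 (1.37 to 5.13) and 0.707 at 8 weeks (0.600 to 1.34). The highest P15 value, above all P6 mice, was that of P15 male 1, and the 8-week mice lay below all mice of the other ages. The log2 ratio of Gas6 to Pros1 fell by 1.03 from P6 to P15 (SE 0.15) and by 1.40 from P15 to 8 weeks (SE 0.17), each with an adjusted p of 3.00e-05 over the 6 comparisons of the ratios (two-sided permutation test, 100000 permutations, whose smallest unadjusted p is 2e-05). The change over the whole interval was 2.35 for the receptor ratio and -2.43 for the ligand ratio (adjusted p = 3.00e-05 for both, permutation test). With P6 female 6 included these were 2.47 and -2.44, and that mouse had ratios of 0.615 and 4.19.

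**Figure D2:**
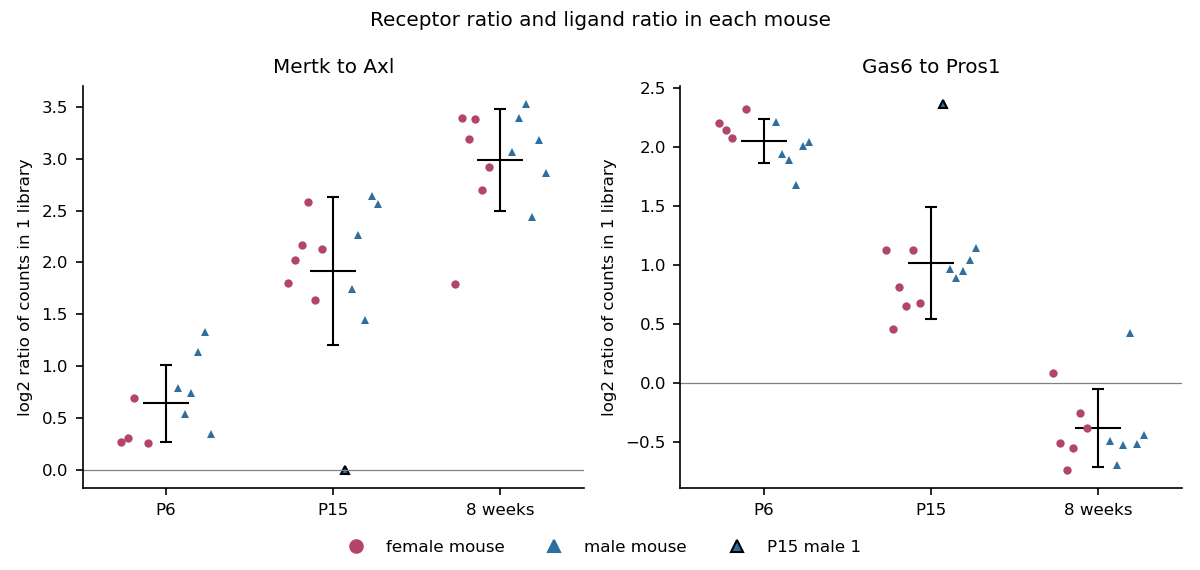
log2 ratio of Mertk to Axl counts (left) and of Gas6 to Pros1 counts (right) in each mouse, with the mean and SD of each age as bars and P15 male 1 outlined. The ratio of Mertk to Axl is above that of all P6 mice in each 8-week mouse, and the ratio of Gas6 to Pros1 passes below 0 at 8 weeks in all mice but 8-week male 4 and 8-week female 1. Counts in the ratios are not divided by gene length.

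Divided by exon length (FPKM, the CPM per kilobase of exon), Mertk made up 60.6% ± 6.42 of the summed TAM receptor level at P6 (SD, 10 mice), and 78.6% ± 10.3 and 88.7% ± 4.02 of it at the later ages (12 mice each). Axl made up 33.7%, 18.9% and 10.1%, and Tyro3 5.63%, 2.45% and 1.25%. Of the summed level of both TAM ligands, Gas6 gave 86.9% ± 1.50 in the P6 mice, 76.0% ± 5.03 in the P15 mice and 55.1% ± 5.50 in the adults, with Pros1 giving the rest. The order of the 10 genes per length began with Gas6 (248 ± 52.3 FPKM), Lrp1 (112 ± 23.6) and Mfge8 (49.0 ± 17.0) at P6. At 8 weeks it began with Mertk (168 ± 29.8 FPKM), Lrp1 (111 ± 19.8) and Gas6 (104 ± 15.3). Neighbours whose ranges did not overlap were Gas6 above Lrp1, Lrp1 above Mfge8, Pros1 above Axl and Cd36 above Tyro3 at P6, Axl above Cd36 at P15, and Mfge8 above Axl and Axl above Cd36 at 8 weeks, while all other neighbours overlapped. The last places went to Tyro3, Timd4 and Megf10 at each age, all under 5 FPKM on average.

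The promoters of the 4 genes in these ratios are shown because their transcripts moved apart in pairs. RefSeq windows were taken for 9 of the 10 genes, since those on the chromosome of Megf10 were left out for the members. Each window spans 250 bases before to 50 bases after the start in RefSeq's own annotation, which need not be the GENCODE start printed here. The windows are written 5′ to 3′ along the gene's strand. Capitals mark the GC box GGGCGG on either strand, CCGCCC being the same box read on the other strand, and overlapping matches were counted separately. The Mertk window is chr2:128698665-128698964 (GRCm38.p6, plus strand), the Axl window chr7:25788684-25788983 (minus strand), the Gas6 window chr8:13494486-13494785 (minus strand) and the Pros1 window chr16:62854057-62854356 (plus strand).
Mertk: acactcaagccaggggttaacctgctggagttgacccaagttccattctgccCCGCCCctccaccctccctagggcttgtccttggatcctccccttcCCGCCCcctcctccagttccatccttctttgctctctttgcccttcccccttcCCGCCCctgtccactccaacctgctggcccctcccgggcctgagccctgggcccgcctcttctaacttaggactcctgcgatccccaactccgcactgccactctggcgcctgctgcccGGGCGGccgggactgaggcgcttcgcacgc
Axl: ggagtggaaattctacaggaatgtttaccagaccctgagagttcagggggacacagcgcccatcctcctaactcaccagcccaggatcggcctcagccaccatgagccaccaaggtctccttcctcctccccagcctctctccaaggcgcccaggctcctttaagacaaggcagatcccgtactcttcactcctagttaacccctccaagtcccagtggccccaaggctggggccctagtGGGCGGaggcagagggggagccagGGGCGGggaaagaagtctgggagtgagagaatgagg
Gas6: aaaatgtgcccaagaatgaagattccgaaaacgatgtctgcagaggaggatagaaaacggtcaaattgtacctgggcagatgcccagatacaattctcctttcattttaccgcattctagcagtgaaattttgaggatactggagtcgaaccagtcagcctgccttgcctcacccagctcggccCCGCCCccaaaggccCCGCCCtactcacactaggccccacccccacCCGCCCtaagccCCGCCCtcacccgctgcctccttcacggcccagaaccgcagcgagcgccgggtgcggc
Pros1: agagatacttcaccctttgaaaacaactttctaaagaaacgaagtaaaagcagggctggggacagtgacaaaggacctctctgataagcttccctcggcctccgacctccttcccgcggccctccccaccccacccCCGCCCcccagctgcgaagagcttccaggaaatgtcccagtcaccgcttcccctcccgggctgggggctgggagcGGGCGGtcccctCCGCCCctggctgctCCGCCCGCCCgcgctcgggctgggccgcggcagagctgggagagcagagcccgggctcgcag
The GC box occurred 4 times in the Mertk window, 2 times in that of Axl, 4 times in that of Gas6 and 5 times in that of Pros1. It was found in 8 of the 9 windows, beside 35.7% of all 32851 RefSeq promoters. The ETS core GGAAGT, a short motif within sites of the macrophage factor PU.1, was found in 2 of the 9 (Cd36 and Timd4) beside 23.8% of all promoters, the CCAAT box in the same 2 windows beside 37.4%, and the TATA box TATAAA in 0 of the 9 beside 13.6%. A match describes letters and not a bound site.

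Mfge8, a secreted bridge between phosphatidylserine and integrins, lies on chromosome 7 (79133768 to 79149060, minus strand, ENSMUSG00000030605). Its range was 97.2 to 315 CPM at P6 (median 245), 86.3 to 798 CPM at P15 (median 243) and 167 to 682 CPM at 8 weeks (median 275). The ages overlapped, and the highest mice were P15 male 1 at P15 and 8-week female 1 at 8 weeks. No change between ages passed the test, with a log2FC of 0.21 (FDR = 0.533, edgeR) from P6 to P15, 0.19 (FDR = 0.565) from P15 to 8 weeks and 0.41 (FDR = 0.199) from P6 to 8 weeks. The first of these turned to -0.05 (FDR = 0.861) without P15 male 1, and relative to the microglial markers they were -1.13 (FDR = 0.00409), -0.09 (FDR = 0.855) and -1.21 (FDR = 0.00224), which lay 0.37, 0.06 and 0.40 above the median gene. The subunits of the integrins that Mfge8 binds, named after their values were seen, rose from P6 to 8 weeks by 1.16 for Itgav (FDR = 1.50e-12), 1.02 for Itgb3 (FDR = 2.35e-08) and 1.75 for Itgb5 (FDR = 2.11e-13), and relative to the microglial markers they were -0.49, -0.60 and 0.12.

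Megf10, an engulfment receptor known mainly from astrocytes, lies on chromosome 18 (57133090 to 57297467, plus strand, ENSMUSG00000024593). It ranged from 4.52 to 12 CPM at P6 (median 9.73), from 6.87 to 54.4 CPM at P15 (median 20.2) and from 12.6 to 52.1 CPM at 8 weeks (median 31.4). P6 and 8-week mice did not overlap, and the highest mice were P15 female 2 and 8-week female 1. Megf10 rose by 1.20 (log2, SE 0.259, FDR = 0.000181, edgeR) from P6 to P15 and by 1.74 (SE 0.264, FDR = 6.60e-07) from P6 to 8 weeks, and these became -0.19 (FDR = 0.592) and 0.09 (FDR = 0.808) relative to the microglial markers, 1.31 and 1.70 above the median gene. The step from P15 to 8 weeks, log2FC 0.54 (SE 0.236), had an FDR of 0.0602, which passed without P15 female 2 (0.69, FDR = 0.0126) or without P15 male 1 (0.59, FDR = 0.0422). The astrocyte markers had summed medians of 941, 3404 and 2960 CPM. The medians of Slc1a2, Slc1a3, Gja1, Aldoc and Aqp4 were higher at P15 and at 8 weeks than at P6. That of Gfap fell at each step (52.2, 48.5 and 20.4 CPM), and that of Aldh1l1 was highest at P15 and lowest at 8 weeks. The part of the astrocyte markers in the rise of Megf10 was not tested.

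Lrp1, a large endocytic receptor that also takes up apolipoproteins, lies on chromosome 10 (127538161 to 127621148, minus strand, ENSMUSG00000040249). It ranged from 1572 to 2901 CPM at P6 (median 1896), from 1968 to 3678 CPM at P15 (median 2516) and from 1279 to 2502 CPM at 8 weeks (median 1970). The ages overlapped, with the highest mice at P15. Lrp1 rose by 0.43 (log2, SE 0.118, FDR = 0.00213, edgeR) from P6 to P15, which turned to -1.04 (FDR = 9.98e-10) relative to the microglial markers, 0.47 above the median gene. It fell by 0.43 (SE 0.110, FDR = 0.00209) from P15 to 8 weeks, and the difference between 8 weeks and P6 was 0.00 (SE 0.117, FDR = 0.981), which became -1.62 (FDR = 3.04e-14) relative to the microglial markers, or -0.01 relative to the median gene.

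Cd36, a scavenger receptor for oxidised lipids and a receptor of dying cells, lies on chromosome 5 (17781690 to 17888801, minus strand, ENSMUSG00000002944). It ranged from 33.1 to 72.7 CPM at P6 (median 51.0), from 5.60 to 46.0 CPM at P15 (median 33.6) and from 20.6 to 35.4 CPM at 8 weeks (median 31.7). The upper P6 mice were above all others, the ages overlapped, and P15 male 1 was far below every other mouse. Cd36 fell by 0.61 (log2, SE 0.192, FDR = 0.00677, edgeR) from P6 to P15 and by 0.50 (FDR = 0.000692) without P15 male 1. It fell by 0.74 (SE 0.192, FDR = 0.000944) from P6 to 8 weeks, and the step from P15 to 8 weeks did not pass (log2FC -0.13, FDR = 0.574). Relative to the microglial markers these changes were -2.17, -2.38 and -0.21, with the same calls.

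Timd4, a phosphatidylserine receptor known as a marker of long-lived tissue macrophages, lies on chromosome 11 (46810800 to 46844332, plus strand, ENSMUSG00000055546). It was the lowest of the 10 in CPM, at 2.06 to 4.97 CPM at P6 (median 2.86), 1.15 to 3.67 CPM at P15 (median 2.58) and 1.02 to 2.95 CPM at 8 weeks (median 1.89). The ages overlapped, although each mouse was above the level of 3 counts. Timd4 fell by 0.76 (log2, SE 0.219, FDR = 0.00236, edgeR) from P6 to 8 weeks. The steps were -0.30 (FDR = 0.236) and -0.46 (FDR = 0.0657), and the second passed without P15 male 1 (-0.57, FDR = 0.0209) or P15 female 2 (-0.55, FDR = 0.0250). Relative to the microglial markers both steps passed (-1.84, FDR = 6.38e-11, and -0.56, FDR = 0.0106). The summed level of the border-associated macrophage markers also moved between the ages (medians of 1005, 962 and 500 CPM), and its part in this fall was not tested.

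**Figure D3:**
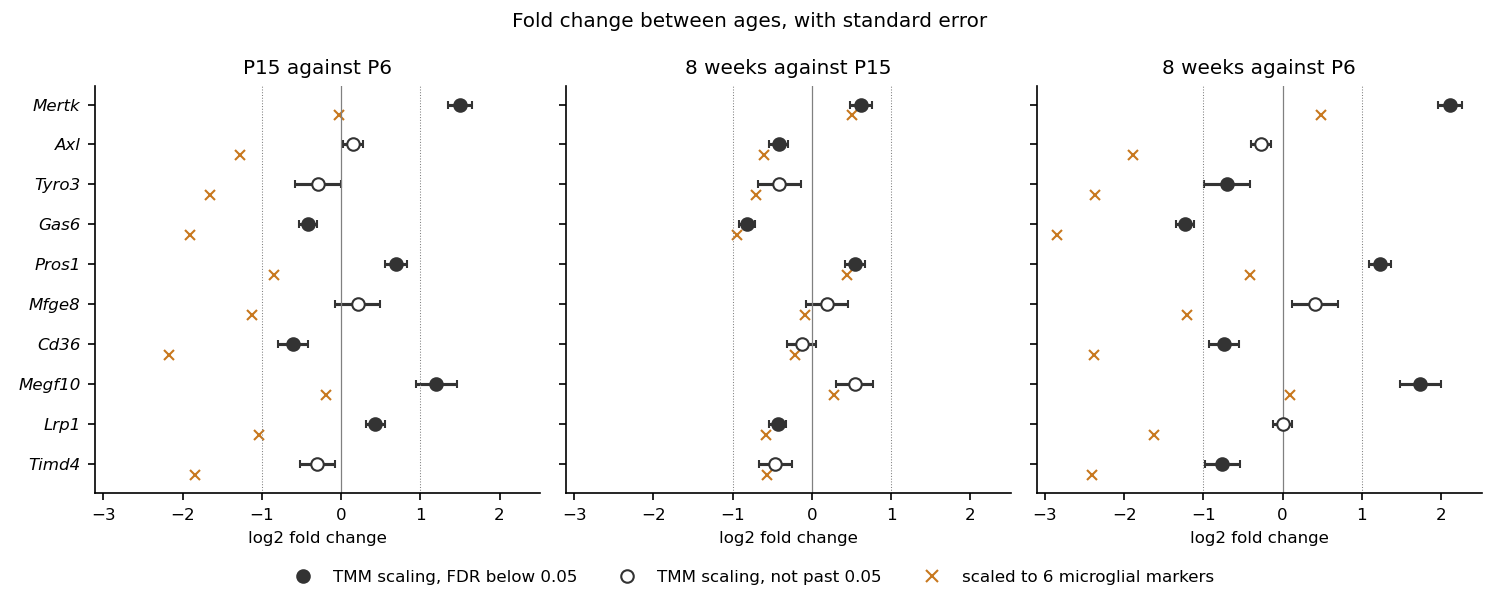
log2 fold change of the 10 genes between ages, with circles and SE bars for TMM scaling (filled where the FDR was below 0.05) and crosses for counts scaled to the 6 microglial markers. Dotted lines mark 2-fold. From P6 to P15 the crosses of Mertk, Axl, Pros1, Mfge8, Megf10 and Lrp1 lie on the other side of 0 from their circles, and from P15 to 8 weeks that of Mfge8 does. Over the interval from P6 to 8 weeks those of Pros1 and Mfge8 do. There the cross of Lrp1 lies at -1.62 and its circle at 0.00.

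Within each age, the mice differed in how much astrocyte RNA their libraries held, and several members moved with it. The mean log2 CPM of the 7 astrocyte markers was set against each member over the mice of 1 age, which gave 30 relations, and 10 had a Benjamini-Hochberg adjusted p of Pearson's r below 0.05 (permutation test, 100000 permutations), 8 of them positive and 2 negative. By Spearman's rho 11 passed, 6 positive and 5 negative. Megf10 followed the markers in the P6 mice (r = 0.92, adjusted p = 0.00120, rho = 0.95, permutation test), in the P15 mice (r = 0.94, adjusted p = 3.00e-04, rho = 0.92) and in the adults (r = 0.85, adjusted p = 0.00280, rho = 0.87), and r stayed at 0.81, 0.89 and 0.88 without the 2 mice farthest from the median. Mfge8 followed them too at P6 (r = 0.94, adjusted p = 0.00216, rho = 0.89, permutation test) and at P15 (r = 0.86, adjusted p = 0.00150, rho = 0.84). At 8 weeks the Mfge8 relation (r = 0.74, adjusted p = 0.0238, rho = 0.59, permutation test) dropped to r = 0.29 without the 2 farthest mice and so rests on them. The same holds for Axl at 8 weeks (r = 0.75, adjusted p = 0.0255, rho = 0.55, permutation test, r = 0.29 without them).

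At P15, Tyro3 also followed the astrocyte markers (r = 0.85, adjusted p = 0.00216, rho = 0.79, permutation test, r = 0.77 without the 2 farthest mice). At the same age Gas6 (r = -0.80, adjusted p = 0.00831, rho = -0.80, permutation test) and Timd4 (r = -0.69, adjusted p = 0.0496, rho = -0.79) ran against them, at r = -0.61 and -0.76 without the 2 farthest mice. Mertk gave r = -0.64, -0.66 and -0.23 at the 3 ages, with adjusted p of 0.0842, 0.0658 and 0.529 (permutation test), r of -0.47, -0.58 and 0.28 without the 2 farthest mice, and rho of -0.39, -0.80 and -0.01, of which that at P15 passed (adjusted p = 0.0101, permutation test). Also at P15, rho but not r passed for Pros1 (rho = -0.87, adjusted p = 0.00405, r = -0.62, adjusted p = 0.0842, permutation test) and Cd36 (rho = -0.69, adjusted p = 0.0440, r = -0.48, permutation test). Whether these relations differ between ages was not tested, and the part of astrocyte RNA in the changes with age was not tested either. Relations with the astrocyte markers were chosen for study after the values had been seen.

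**Figure D4:**
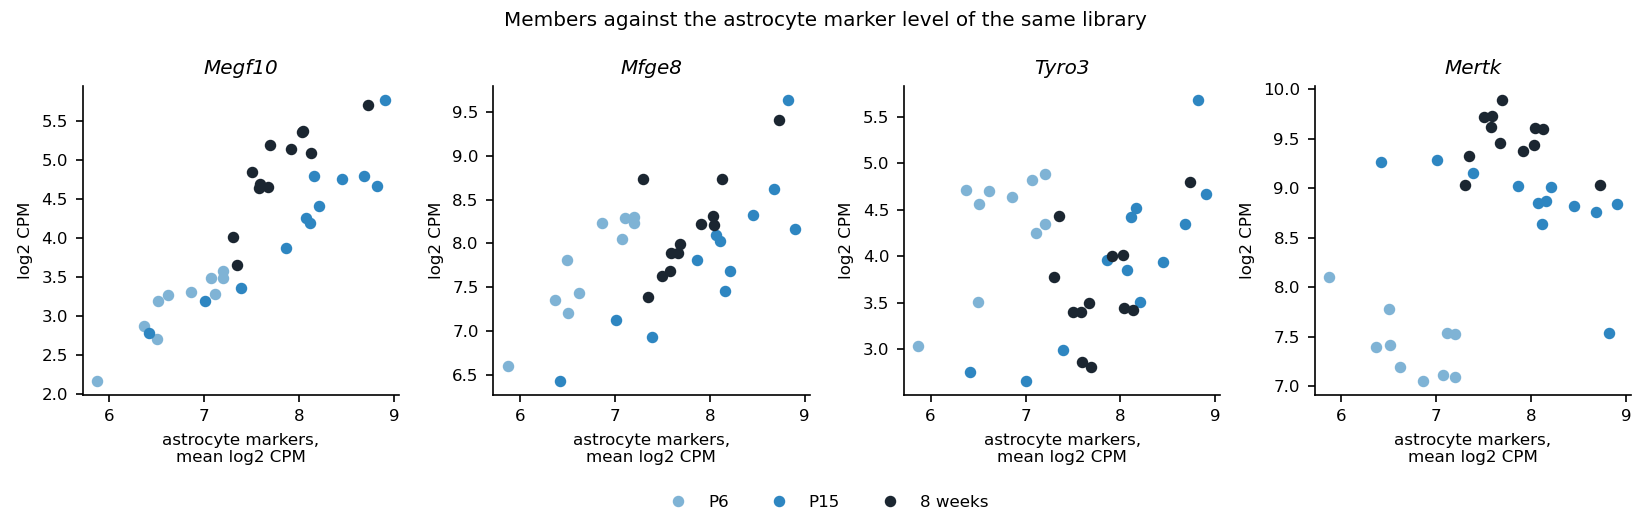
log2 CPM of Megf10, Mfge8, Tyro3 and Mertk (vertical axes) against the mean log2 CPM of 7 astrocyte markers (horizontal axes), with 1 point per mouse and a shade per age. Megf10 climbs with the markers at each age (r = 0.92, 0.94 and 0.85), while r of Mertk was -0.64, -0.66 and -0.23.

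After the mean of each age and sex group was subtracted, the 10 genes fell on different sides. As a description over 34 mice, Mertk varied with Pros1 (r = 0.93) and Cd36 (r = 0.82) and against Tyro3 (r = -0.87) and Mfge8 (r = -0.76), and Gas6 varied with Lrp1 (r = 0.72). All points share their library's depth and cell makeup. Among all tested genes, the closest to Mertk were Srgap2, Cbl and Ankrd44 (r = 0.98 each), those closest to Pros1 were Cd84 and Lamp2 (r = 0.98) and Asah1 (r = 0.97), and those closest to Gas6 were Tmem63a, Mgat1 and Ptpn6 (r = 0.96 each). Those closest to Megf10 were Gm3764 and the astrocyte glutamate transporter Slc1a2 (r = 0.95) and Gabrb1 (r = 0.94), those closest to Mfge8 were the amino acid transporters Slc1a4 and Slc38a3 and the protease Htra1 (r = 0.98 each), and those closest to Tyro3 were Mapk8ip2, Mapk8ip1 and Atp9a (r = 0.96 each). Axl was nearest to Atp2a3 and Tmem51 (r = 0.89) and Slc12a4 (r = 0.88), Cd36 to Cmah (r = 0.94), Msr1 and Zcchc9 (r = 0.93), and Lrp1 to 2610507B11Rik (r = 0.91), Myo18a (r = 0.90) and Rptor (r = 0.89). Timd4, the lowest in counts, was nearest to Clcc1 and Psma1 (r = 0.78) and Gmpr2 (r = 0.76).

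Females and males did not differ in any of the 10 genes at an FDR below 0.05 (edgeR), at any age or on average. At an unadjusted p under 0.05, 1 gene differed, Mertk at P6 (log2FC of males against females 0.45, SE 0.213, FDR = 0.696), where 4 females held 133 to 168 CPM and 6 males 146 to 274 CPM, beside 7.1% of all genes at P6. Over all genes, 0.148% differed between the sexes at some age or on average and 0.0454% beyond 2-fold, while 0 members did so beyond 2-fold. The largest difference by size was that of Megf10 at P15 (log2FC -0.65, SE 0.335, FDR = 0.287). The interaction of sex and age was called for 0 members and 0% of all genes (edgeR), 0 members had an unadjusted p under 0.05, and by limma-voom and DESeq2 0 members were called too. This does not show that the sexes were alike.

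Other genes of apoptotic-cell clearance were taken from 6 lists with 66 genes, of which 65 were tested. From P6 to P15, 28 rose and 12 fell (26 and 18 with library size scaling, where the median of all genes was -0.14), and from P15 to 8 weeks 24 rose and 5 fell. From P6 to 8 weeks 35 rose and 11 fell, with a median log2FC of 0.25 beside 0.04 over all genes tested (30 and 14 with library size scaling, with a median of 0.10 beside -0.10). Of all genes 30.4% rose and 31.4% fell over the first interval, 24% and 23.9% over the second, and 37.8% and 36.6% over the third. Relative to the microglial markers, 0 rose and 63 fell from P6 to P15 (2.19% and 87.8% of all genes), 8 rose and 11 fell from P15 to 8 weeks (12.2% and 28.7%), and 1 rose and 61 fell from P6 to 8 weeks (4.25% and 85.1%), with a median of -1.40 beside -1.61 over all genes. On both scales 47 of the 65 lay above the median of all genes over the last of these.

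Of the 16 other apoptotic-cell receptors tested, 8 rose and 2 fell from P6 to 8 weeks with a median log2FC of 0.44, and 1 rose and 13 fell relative to the microglial markers. The largest rises were those of Stab2 (2.05, SE 0.400, FDR = 3.11e-05), a scavenger receptor of endothelium that was near the detection limit with medians of 0.122 CPM at P6 and 0.754 CPM at 8 weeks, and of Havcr2 (2.01, SE 0.178, FDR = 1.20e-11), the immune checkpoint receptor TIM-3, from a median of 56.2 to 253 CPM. Relative to the microglial markers Havcr2 kept a rise (0.38, FDR = 0.00533), and Stab2 did not pass (0.44, FDR = 0.334). The summed level of the 6 endothelial markers, none of them at 0, also moved between the ages. It was 45.1 to 121 CPM at P6 (median 73.7), 79.6 to 232 CPM at P15 (median 148) and 106 to 293 CPM at 8 weeks (median 156). The medians of Pecam1, Flt1, Ly6c1 and Cldn5 were higher at 8 weeks than at P6. Those of Cdh5 (12.1 CPM at P6, 11.2 CPM at 8 weeks) and Esam (11.6 and 11.2 CPM) were slightly lower. The part of the endothelial markers in the rise of Stab2 was not tested. The falls were those of Scarb1, the receptor of high-density lipoprotein (-1.04, SE 0.109, FDR = 5.51e-10), and Scarf1, a scavenger receptor that recognises C1q on dying cells (-0.50, SE 0.221, FDR = 0.0401). Havcr1 failed the filter, with at most 4 counts in a mouse.

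Of the 10 other soluble opsonins and bridging molecules, 5 rose and 4 fell with a median of 0.10 (4 and 4 with a median of -0.04 under library size scaling), and 0 rose and 9 fell relative to the microglial markers. C1qa and C1qb, subunits of the complement protein C1q, rose most (1.41, SE 0.138, FDR = 9.99e-11, and 1.17, SE 0.138, FDR = 5.91e-09), C1qa from a median of 1406 to 3538 CPM. The complement protein C3 (-1.35, SE 0.189, FDR = 1.61e-07) and the lectin Lgals3 (-1.17, SE 0.148, FDR = 2.22e-08) fell most. Lgals3 was lowest at P15, with a median of 5.79 CPM (3.93 to 10.1) after 24.6 CPM at P6 (15.8 to 30.4).

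Of 14 genes of engulfment signalling, 6 rose and 1 fell with a median of 0.17, and 0 rose and 14 fell relative to the microglial markers. With library size scaling, under which the median of all genes was -0.10, 4 rose and 3 fell with a median of 0.03. There Src (0.19, FDR = 0.0882, edgeR) and Abca7 (0.05, FDR = 0.543) lost their calls. Abca1 (-0.35, FDR = 0.0252) and Rac1 (-0.26, FDR = 0.000597) were called as falls on that scale. Elmo1, which with Dock proteins activates Rac, rose by 1.07 (SE 0.110, FDR = 3.23e-10) and the exchange factor Vav1 by 0.72 (SE 0.122, FDR = 4.03e-06), while the kinase Ptk2 fell by 0.99 (SE 0.222, FDR = 0.000188). Of 12 genes of LC3-associated phagocytosis and phagosome maturation, 6 rose and 3 fell with a median of 0.19, and 0 rose and 12 fell relative to the microglial markers. These changes were small, led by the NADPH oxidase subunit Cybb (0.72, SE 0.156, FDR = 0.000136) and Atg16l1 (0.58, SE 0.0725, FDR = 1.95e-08) upwards and by Atg7 (-0.44, SE 0.0704, FDR = 1.87e-06) and Rab7 (-0.27, SE 0.0675, FDR = 0.000553) downwards.

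Of 8 genes of phosphatidylserine exposure and the CD47 brake on engulfment, 6 rose and 1 fell with a median of 0.70, and 0 rose and 8 fell relative to the microglial markers. The scramblase Xkr8, which exposes phosphatidylserine after caspase cleavage, rose by 1.36 (SE 0.0981, FDR = 8.56e-14) and Cd47, the signal that restrains phagocytes, by 0.73 (SE 0.0598, FDR = 1.88e-12). Xkr4, a relative of Xkr8 known from neurons, fell by 3.43 (SE 0.402, FDR = 4.85e-09), from a median of 4.20 to 0.326 CPM. Its fall went with that of the markers of neural progenitors and immature neurons, whose mean log2 CPM was 6.62 at P6 and 1.93 at 8 weeks, and their part in it was not tested.

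Of 5 genes that modify the TAM ligands or the receptors, 4 rose and 0 fell with a median of 0.68, and 0 rose and 5 fell relative to the microglial markers. Ggcx, the carboxylase that Gas6 and Pros1 need to bind phosphatidylserine, rose by 1.18 (SE 0.0710, FDR = 9.49e-16), from a median of 16.3 CPM at P6 through 27.9 at P15 to 37.3 at 8 weeks. Adam17, a protease that sheds Mertk from the surface, rose by 0.77 (SE 0.134, FDR = 6.14e-06). The other 3, named after their values were seen, were Vkorc1, which recycles the vitamin K that Ggcx uses (0.68, FDR = 3.31e-06), the protease Adam10 (0.62, FDR = 0.000327) and the Lrp1 chaperone Lrpap1, which did not pass (0.09, FDR = 0.249).

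**Figure D5:**
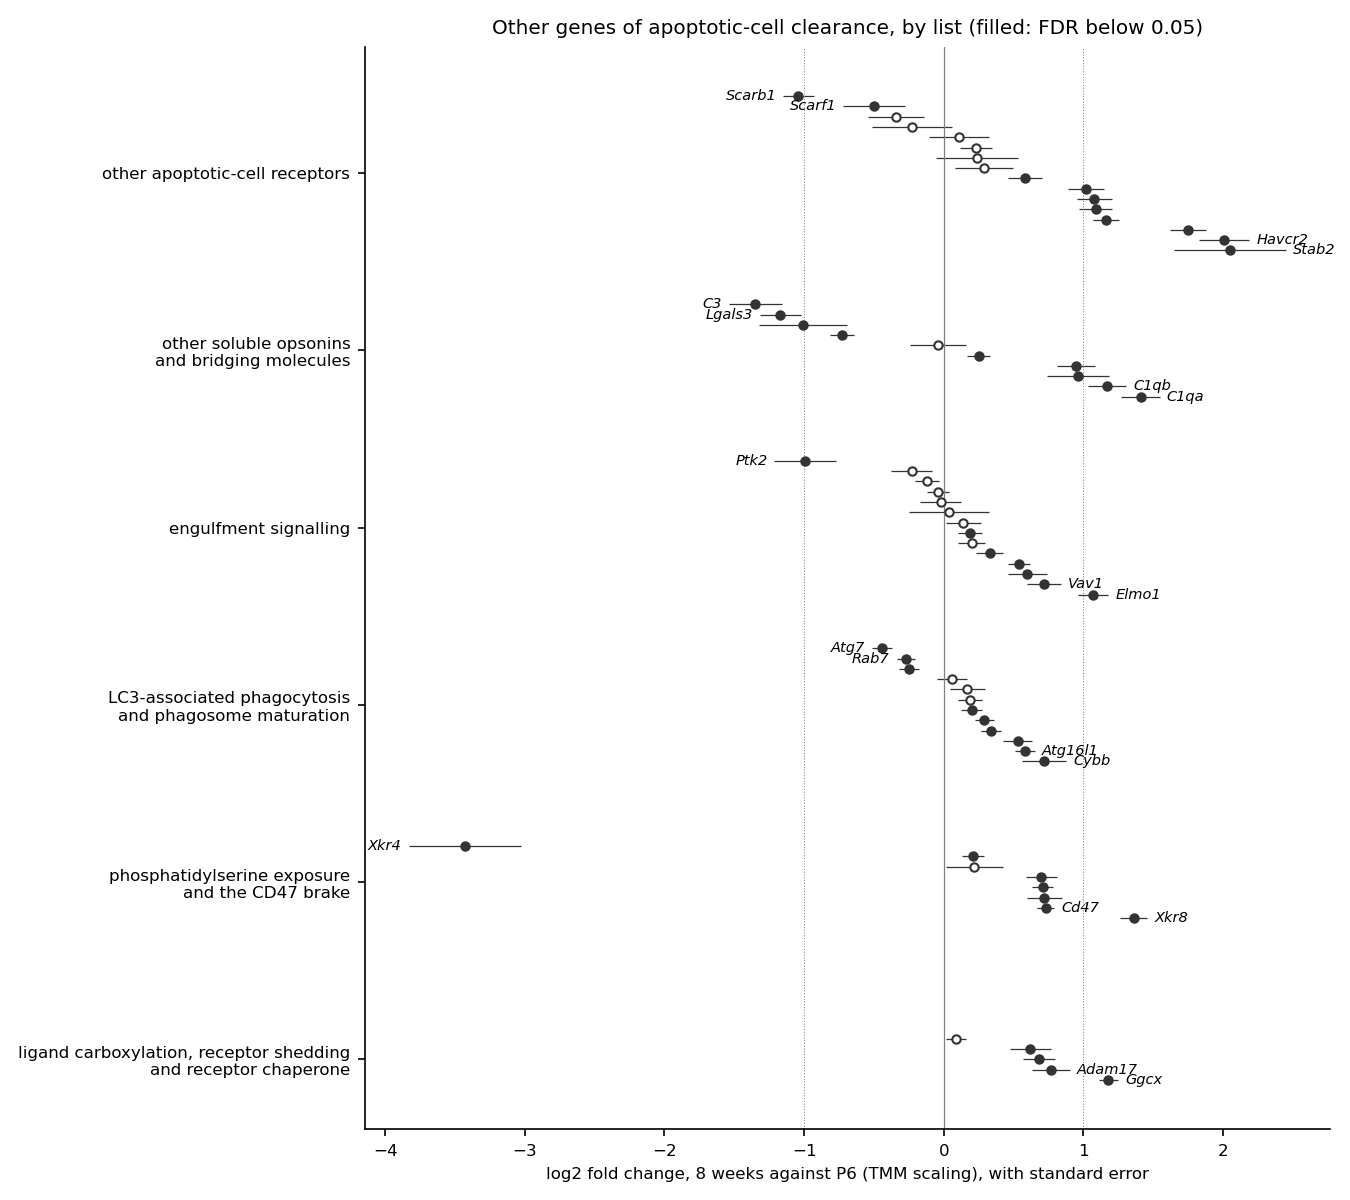
log2 fold change from P6 to 8 weeks (TMM scaling, with SE bars) of the 65 tested genes of the 6 lists, filled where the FDR was below 0.05, with the leading genes of each list named. Of them 35 rose and 11 fell on this scale, against 1 and 61 relative to the microglial markers, and Xkr4 lies farthest from 0 at -3.43.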

How the data were processed

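Cells of whole C57Bl/6 mouse brains were immunopanned on anti-CD45, and their mRNA was sequenced as directional paired-end libraries, 1 per mouse (35 mice). The authors trimmed reads (the submitters' processing notes name fastp 0.20.0), aligned them to GRCm38 with STAR, and counted reverse-stranded fragments per gene with featureCounts. The deposited values are raw counts, from 23316107 to 38965078 per mouse. Their annotation release is not given in the sources used here, so symbols and exon lengths were taken from GENCODE M21, which named 55141 of 55401 genes. Small RNA libraries and quantitative PCR were not analysed here. Some genes are not reported here by name.

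Groups followed the labels of age and sex. P6 female 6, absent from the mRNA samples the study plotted, was left out of the main set, leaving 34 mice. The filter on low values kept 17612 genes that reached 0.5 CPM in 5 mice or more. CPM used TMM factors, and FPKM divided CPM by exon length in kilobases. Counts were fitted with edgeR 4.0.16 (R 4.3.3, robust quasi-likelihood, 6 group means), which shares 1 estimate of spread. Age and sex contrasts were tested with glmQLFTest and glmTreat at 2-fold, with Benjamini-Hochberg adjustment over all tested genes and an FDR threshold of 0.05. Standard errors were derived from the F statistics. The fit was tested on simulated data. Log2 ratios of counts (0.5 added) were compared by two-sided permutation tests (100000 permutations, scipy 1.17.1), adjusted over 6. Alternatives were limma-voom (limma 3.58.1), DESeq2 1.42.0, other scalings, filters and designs, and mice left out. Leaving out P15 male 1, P15 female 2 or 8-week female 1 was chosen after seeing the data.

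The 10 members, the gene lists and the tests were chosen with earlier results of these data known. Named genes were the members, the 2 largest rises and 2 largest falls of each list (8 weeks against P6, FDR below 0.05), list genes that failed the filter, and the 3 genes nearest to each member. The integrin subunits Itgav, Itgb3 and Itgb5 and the genes Vkorc1, Adam10 and Lrpap1 fall outside this rule and were named after their values were seen, as were Src, Abca7, Abca1 and Rac1. Single markers of neurons, astrocytes and endothelial cells were named in the same way. Promoter windows came from RefSeq (GRCm38.p6). Nothing in the labels ties mice to litters, so replicates were taken as separate mice.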

Additional observations from a re-analysis of the deposited data

Results flagged for a closer look

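The highest or lowest mouse of each age and sex group was set against the spread of its group with Dixon's test, for 10 genes in 6 groups. The test used values on a log scale, and CPM are printed here. Of the 60 groups, 6 went past the critical value, where chance gives about 3.0. P15 male 1 was the lowest P15 male in 4 of the 6, with Mertk at 186 CPM (next lowest male 399), Pros1 at 85.6 CPM (next 222), Cd36 at 5.60 CPM (next 28.7) and Timd4 at 1.15 CPM (next 2.54). The same mouse had the lowest microglial and border-associated macrophage markers of its age. P6 female 3 had the highest Mertk of the P6 females at 168 CPM (next 138), and 8-week male 3 the lowest Axl of the 8-week males at 55.6 CPM (next 79.8).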

How the results depend on the processing

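All 66 values of the 2 ratios under other settings kept their direction and their side of the threshold, within 0.90 to 1.46 (Mertk to Axl) and -1.45 to -0.96 (Gas6 to Pros1) for the single steps, and all 60 mean levels moved by less than 1 SD. Scaling to the microglial markers changed most else. It called 5 members beyond 2-fold from P6 to P15 (0 up, 5 down, in place of 1) and 6 from P6 to 8 weeks (0 up, 6 down, in place of 3), where 64.6% and 66.9% of all genes were called, and 63 pathway genes from P6 to P15 (0 up, 63 down, in place of 40) and 19 from P15 to 8 weeks (8 up, 11 down, in place of 29). On that scale the log2FC from P6 to P15 turned to -0.03 for Mertk, -1.27 for Axl, -0.85 for Pros1, -1.13 for Mfge8, -0.19 for Megf10 and -1.04 for Lrp1, that from P15 to 8 weeks to -0.09 for Mfge8, and that from P6 to 8 weeks to -0.41 for Pros1, -1.21 for Mfge8 and -1.62 for Lrp1. The scaling divides by genes that themselves rose with age. Mfge8 from P6 to P15 ranged from -0.05 to 0.24 with 1 mouse left out and was -0.08 without the 3 mice highest in astrocyte markers. Lrp1 from P6 to 8 weeks, 0.00 in the report, was -0.13 with library size scaling, -0.00 with DESeq2 and with its size factors, -0.01 with no filter and with age alone, -0.03 with at least 10 counts in every mouse, and -0.07 to 0.02 with 1 mouse left out. Over all settings, these turns included, the members' log2FC kept direction and side 518 times, gained a call 27 times, turned sign 24 times and lost a call once (Megf10 from P6 to 8 weeks, 0.09, relative to the microglial markers), and calls gained outside the microglial scaling were of Axl (P6 to 8 weeks), Megf10 and Timd4 (P15 to 8 weeks) and Tyro3 (P6 to P15). DESeq2 and limma-voom called 2 members beyond 2-fold from P6 to 8 weeks. No member was called for sex or its interaction with age under any setting.

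Mice with the same number at different ages were not paired by design. Of 32 such pairs, 13 correlated above 0.1 (median r 0.08, other pairs -0.01), and 10 of 34 mice matched their own number best. With the number as a replicate block, 6, 6 and 8 members changed over the 3 age contrasts, 1, 0 and 3 beyond 2-fold, and 41, 29 and 45 pathway genes changed. Under the block Axl from P6 to 8 weeks passed the threshold (-0.28, FDR = 0.0292, edgeR), Lrp1 over that interval was -0.02, and the ratio steps were 1.19, 1.07, -0.96 and -1.40.

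Depth limits the lowest genes most, among them Stab2 and, of the members, Timd4.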

Other observations

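P6 female 6, the mouse left out of the comparisons, held 72.9 CPM of Mertk, 60.1 CPM of Pros1 and 252 CPM of Gas6, each below all 10 other P6 mice. Its Tyro3 (53.9 CPM), Mfge8 (444 CPM) and Megf10 (21.8 CPM) were above all of them, and its Axl (118 CPM) lay within their range. Its Cd36 (20.1 CPM), Lrp1 (1233 CPM) and Timd4 (1.50 CPM) were again below all of them. Markers of microglia were lower in this mouse (2515 CPM in sum), and those of astrocytes (2418 CPM) and oligodendrocytes (1906 CPM) were higher, than in any other P6 mouse.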
